A study of Mus musculus with 10 samples.

Results

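The period and cryptochrome genes encode the core repressors of the circadian clock, and they were taken here with 3 further repressors of the same loop. The set was fixed by gene name: Per1, Per2, Per3, Cry1, Cry2, Ciart, Bhlhe40 and Bhlhe41, which the deposited tables list as per1, per2, per3, cry1, cry2, ciart, bhlhe40 and bhlhe41, 8 of 14812 gene entries. All 8 were found. In the clock, the transcription factors CLOCK and BMAL1 bind E-boxes and switch on their own repressors. PER and CRY proteins then gather in a complex that enters the nucleus and blocks CLOCK and BMAL1, until kinases and ubiquitin ligases mark them for destruction and the cycle starts again. CIART, also called CHRONO, represses the same activators, and BHLHE40 and BHLHE41, also called DEC1 and DEC2, compete for E-boxes. In liver this loop follows feeding as well as light, the Per genes also respond to glucocorticoids and cAMP, and CRY proteins are known to restrain glucagon-driven gluconeogenesis.

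The measurements came from single hepatocytes of male C57BL/6 mice, 3 months old, fed regular chow without restriction and anaesthetised with ketamine and xylazine. Hepatocytes, the main cells of the liver parenchyma, were freed by collagenase perfusion, purified on Percoll, and sequenced from the 3' end with the 10x Chromium kit, version 2. Groups differ by zeitgeber time (ZT), the hour of the light-dark cycle, with ZT0 by convention at lights on: 3 libraries (A, B and C) at ZT0, 2 (A and B) at ZT6, 3 at ZT12 and 2 at ZT18. All groups share strain, sex, diet and isolation. The labels do not give the number of mice behind a library, so p-values measure the spread between libraries, which may be partly technical. Both ZT18 libraries lie in a column of the 10x sample index that no other library shares. A difference between ZT18 and another time thus cannot be separated from a difference between index columns.

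The 10 libraries held 18378 cells and 1454623 to 7144803 unique molecular identifiers (UMIs, tagged molecules counted once), with 1588 to 2662 UMIs in the median cell. Hepatocyte markers summed to 30959 to 60574 CPM (counts per 1000000 UMIs of a library). The defining macrophage markers Clec4f, Csf1r and C1qa and the endothelial markers Clec4g and Ptprb were at 0 in every library, and the whole macrophage list summed to at most 6.11 CPM and the endothelial list to at most 14.5. Cholangiocyte markers summed to 20.4 to 118 CPM at ZT0, 5.79 to 20.5 at ZT6, 24.8 to 44.0 at ZT12 and 14.8 to 26.1 at ZT18. Erythroid markers summed to 72.2 to 108 CPM at ZT0, ZT6 and ZT12 and to 99.03 and 361 at ZT18, and mitochondrial genes took 12.9% to 24.3% of UMIs across libraries. The part of these in the results on single genes was not tested, but results on time are also given without both ZT18 libraries where that ends a call.

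Promoter windows show the elements through which the loop is known to act, and they are given for the members whose rhythm was strongest and for Cry1, which peaked apart from them. The windows are from RefSeq on GRCm38.p6, 250 bases before to 50 after the annotated start, on the gene's strand. Capitals mark CACGTG (the E-box, bound by CLOCK and BMAL1), CACGTT read on either strand (a variant E-box), and TTATGTAA or TTATGCAA (D-boxes, bound by DBP, TEF, HLF and NFIL3). Of the 2 windows of Per1 the upstream window is shown.
Per1, chr11:69098699-69098998, plus strand: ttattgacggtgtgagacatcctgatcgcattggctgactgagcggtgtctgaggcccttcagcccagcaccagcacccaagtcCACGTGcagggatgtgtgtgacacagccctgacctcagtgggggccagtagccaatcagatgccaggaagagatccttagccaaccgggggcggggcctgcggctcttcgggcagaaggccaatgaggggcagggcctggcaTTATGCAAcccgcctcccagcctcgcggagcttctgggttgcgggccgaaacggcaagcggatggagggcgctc
Per3, chr4:151044616-151044915, minus strand: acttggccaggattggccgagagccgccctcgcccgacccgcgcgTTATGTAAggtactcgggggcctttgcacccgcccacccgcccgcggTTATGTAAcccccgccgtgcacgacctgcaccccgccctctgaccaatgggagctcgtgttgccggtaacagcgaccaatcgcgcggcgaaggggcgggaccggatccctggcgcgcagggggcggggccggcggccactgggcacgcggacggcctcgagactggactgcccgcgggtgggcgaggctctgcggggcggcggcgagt
Cry1, chr10:85185005-85185304, minus strand: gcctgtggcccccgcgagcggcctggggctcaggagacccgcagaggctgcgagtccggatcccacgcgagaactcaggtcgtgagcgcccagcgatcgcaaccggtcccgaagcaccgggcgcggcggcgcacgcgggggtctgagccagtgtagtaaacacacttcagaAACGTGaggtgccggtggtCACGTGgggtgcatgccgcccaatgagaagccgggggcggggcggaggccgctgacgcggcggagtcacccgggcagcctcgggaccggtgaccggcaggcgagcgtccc
Ciart, chr3:95882179-95882478, minus strand: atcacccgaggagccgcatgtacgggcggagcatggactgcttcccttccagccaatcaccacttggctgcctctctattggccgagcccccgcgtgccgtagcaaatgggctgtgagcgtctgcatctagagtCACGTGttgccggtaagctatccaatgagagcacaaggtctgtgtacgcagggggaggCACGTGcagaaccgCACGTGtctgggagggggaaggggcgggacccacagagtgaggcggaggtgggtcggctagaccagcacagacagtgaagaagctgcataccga

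The Ciart window held 3 E-boxes, which begin 116, 58 and 44 bases before the start. The upstream Per1 window and the Cry1 and Bhlhe41 windows held 1 each, at 166, 60 and 153 bases. CACGTG was found in 7.15% of all 32851 windows of the same length. The Per3 window held no E-box but 2 D-boxes of the form TTATGTAA, at 205 and 158 bases, a motif found in 0.938% of windows. The upstream Per1 window also held TTATGCAA at 24 bases, found in 0.743% of windows, and CACGTT was found in the windows of Cry1 (79 bases) and Cry2 (166 bases) and in 4.68% of all windows. The other Per1 window held none of these motifs. Windows were held for 6 of the 8 members, Per2 and Bhlhe40 being without one, and TGACGTCA (the cAMP response element, in 1.79% of windows) was in none of the 7 windows. No 2 motif matches overlapped, and a match describes these letters and not a bound site.

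Most of the repressors tested followed the time of day. Of those called for rhythm, all but Cry1 peaked close together. The rhythm calls of Cry1 and Cry2 depended on single libraries, as given below. With edgeR (quasi-likelihood F, p-values adjusted after Benjamini and Hochberg over the whole table), 5 of the 7 members that passed the filter of a mean of 3 CPM had a 24-h rhythm (Per1, Per3, Cry1, Cry2 and Ciart), against 5.14% of all 8908 genes tested. The fitted peaks of Cry2, Per1, Ciart and Per3 lay between ZT10.25 and ZT11.10, that of Per2, not called, at ZT15.19 and that of Cry1 at ZT20.11. The amplitude is the log2 height of the fitted wave's peak over its mean, and its median over the 7 was 1.10, against 0.25 over all genes. With no wave assumed, and the means of the 4 times free to differ, edgeR called these 5 members too, against 6.58% of genes. In that test Cry1 (edgeR adjusted p = 0.00582) passed without each library in turn, at most 0.0493. Cry2 (0.0328) lost the call without 8 of the 10 libraries (at most 0.09) and without both ZT18 libraries (0.0543). Per2 missed it (0.0777) and passed with the library letter as a block (0.0228), with limma-voom (0.0392), with library size alone (0.0459), with DESeq2, with no filter, without ZT0A and with the column of the 10x sample index as a block (0.0171). Bhlhe41 was below the filter, with a mean of 2.87 CPM over the 10 libraries.

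**Figure D1:**
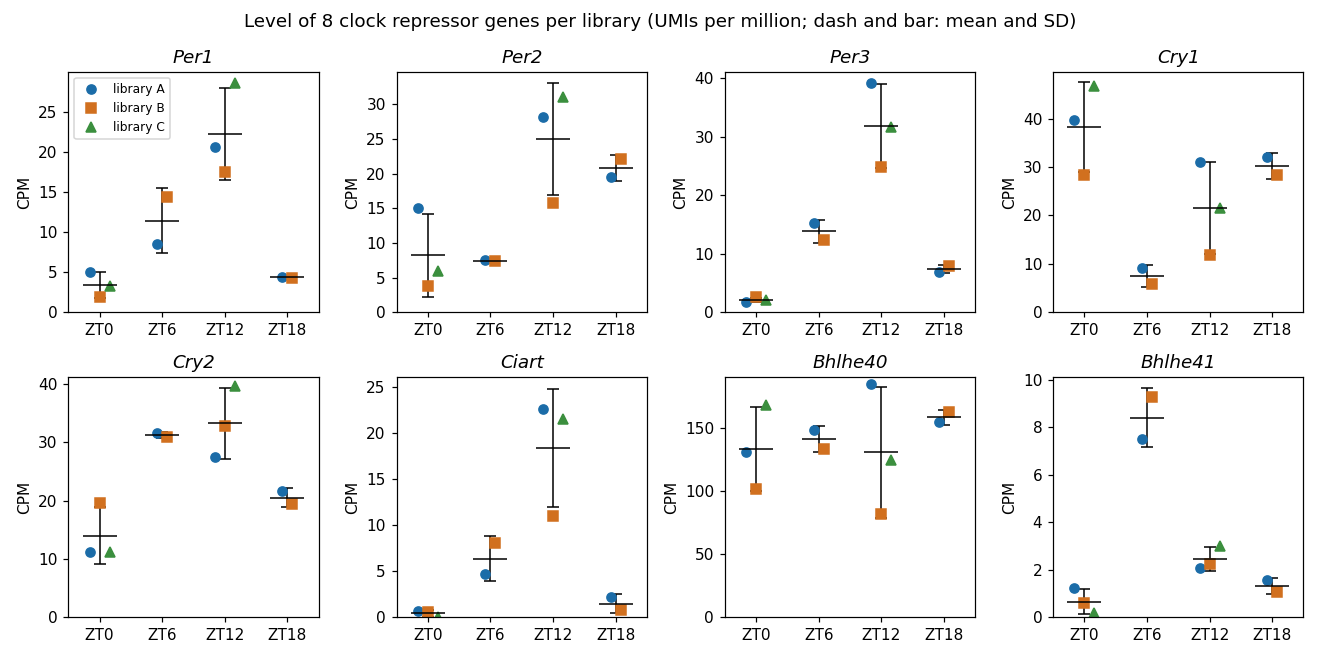
Level of each of the 8 genes in every library (points; circle A, square B, triangle C), in CPM, against zeitgeber time; the dash and bar are the mean and SD of 3, 2, 3 and 2 libraries. Per1, Per3 and Ciart are highest in the 3 ZT12 libraries, Cry1 is lowest in both ZT6 libraries, Bhlhe41 is highest in both ZT6 libraries, and the Bhlhe40 libraries overlap between times except for ZT6 and ZT18.

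Per1, the period gene that responds most quickly to hormones and light, was lowest at ZT0 and ZT18 and highest at ZT12. Its level was 5.06, 1.93 and 3.21 CPM in the ZT0 libraries A, B and C, 8.53 and 14.3 at ZT6, 20.6, 17.5 and 28.6 at ZT12, and 4.40 and 4.31 at ZT18. All 3 ZT12 libraries stood above every other library, and ZT0 and ZT18 overlapped. ZT12 was 5.78-fold above ZT0 (log2 difference 2.53 ± 0.35 SE, edgeR adjusted p = 0.00089), and Per1 fell from ZT12 to ZT18 by 2.18 ± 0.42 on the log2 scale (edgeR adjusted p = 0.00861). The fall was lost without either ZT18 library (edgeR adjusted p = 0.0946 without A and 0.126 without B). The fitted peak-to-trough fold was 7.15 (edgeR adjusted p = 0.00183), and the rhythm passed the test without each of the 10 libraries in turn.

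Per3, a period gene whose loss leaves the mouse clock running, had the lowest adjusted p of the members for rhythm. The ZT0 libraries held 1.75, 2.53 and 2.03 CPM, the ZT6 libraries 15.2 and 12.4, the ZT12 libraries 39.2, 24.8 and 31.6, and the ZT18 libraries 6.92 and 7.81. No 2 times overlapped, and the order of the times was ZT0, ZT18, ZT6 and ZT12. Per3 rose 13.2-fold from ZT0 to ZT12 (log2 difference 3.72 ± 0.26, edgeR adjusted p = 3.8e-06) and 6.13-fold from ZT0 to ZT6 (edgeR adjusted p = 0.00054). It fell by 1.94 ± 0.28 on the log2 scale from ZT12 to ZT18 (edgeR adjusted p = 0.00122), and the difference between ZT18 and ZT0 of 1.79 ± 0.32 also passed (edgeR adjusted p = 0.0107), though not without ZT18A (0.0786) or ZT18B (0.202). From ZT6 to ZT12 the difference was 1.11 ± 0.26 and did not pass (edgeR adjusted p = 0.0826, and 0.0479 with the library letter as a block).

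Per2, the period gene whose loss disturbs behavioural rhythms most, lay just outside the threshold for rhythm. Libraries of ZT0 held 15.0, 3.72 and 5.91 CPM, those of ZT6 7.52 and 7.34, those of ZT12 28.2, 15.8 and 31.1, and those of ZT18 19.5 and 22.1. Every ZT12 and ZT18 library was above every ZT0 and ZT6 library, with ZT12B and ZT0A the closest. The fitted amplitude was 1.03, a peak-to-trough fold of 4.19, with an edgeR adjusted p of 0.0536. It passed with the library letter as a block (edgeR adjusted p = 0.0195, in a fit that called 8.41% of genes) and without ZT0A (0.00254), and reached 0.117 at most when another library was left out. DESeq2 (adjusted p = 0.00645), limma-voom (0.0283) and edgeR with library size alone (0.0338) called it as well. With the index column as a block, where the ZT18 libraries inform no time term, the fitted peak moved to ZT12.77 (edgeR adjusted p = 0.00637). ZT12 against ZT0 gave a log2 difference of 1.38 ± 0.43 (edgeR adjusted p = 0.107), which was 0.0332 with the letter as a block and 0.0016 without ZT0A.

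Cry1, a strong and late repressor of the loop, was lowest at ZT6, when Cry2 and Bhlhe41 were high. At ZT0 its level was 39.6, 28.4 and 46.8 CPM, at ZT6 9.14 and 5.79, at ZT12 30.9, 11.9 and 21.6, and at ZT18 32.1 and 28.3. Both ZT6 libraries were below all others, and ZT0, ZT12 and ZT18 overlapped one another. Cry1 fell from ZT0 to ZT6 by 2.40 ± 0.37 on the log2 scale (edgeR adjusted p = 0.00756) and was 4.14-fold higher at ZT18 than at ZT6 (log2 difference 2.05 ± 0.40, edgeR adjusted p = 0.014). The first was lost without ZT6A (0.0883) or ZT6B (0.16), and the second without any of the 4 libraries compared (edgeR adjusted p from 0.073 to 0.135). The rhythm had an amplitude of 1.10 and an edgeR adjusted p of 0.0478, which passed without ZT12A or ZT18B and not without any of the other 8 libraries (at most 0.147), nor with library size alone (0.0756). Without both ZT18 libraries the amplitude was 1.95 (edgeR adjusted p = 0.0111). ZT12 was below ZT0 by a log2 difference of -1.07 ± 0.30 that did not pass (edgeR adjusted p = 0.073) and did with the letter as a block (0.0109).

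Cry2, the paralogue of Cry1, was high at ZT6 and ZT12. Levels were 11.2, 19.6 and 11.1 CPM in the ZT0 libraries, 31.7 and 30.9 in those of ZT6, 27.5, 32.8 and 39.7 in those of ZT12, and 21.7 and 19.4 in those of ZT18. The ZT6 and ZT12 libraries were above all ZT0 and ZT18 libraries, and ZT18 overlapped ZT0. Cry2 rose 2.15-fold from ZT0 to ZT12 (log2 difference 1.10 ± 0.24, edgeR adjusted p = 0.0173), a call lost without ZT0C (0.0629), ZT12B (0.0622) or ZT12C (0.0677) and when only those times were fitted (0.0695). Its amplitude of 0.62 was the smallest of the 5 called, with a peak-to-trough fold of 2.35 (edgeR adjusted p = 0.0334). That call held without ZT0B or ZT12A and was lost without any of the other 8 libraries (at most 0.0794), and also without both ZT18 libraries together (0.0543).

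Ciart had the largest amplitude of the members, 2.71, at low counts. Its level was 0.698, 0.595 and 0 CPM in the ZT0 libraries (4, 4 and 0 UMIs), 4.67 and 8.11 at ZT6, 22.7, 11.1 and 21.6 at ZT12 (33, 79 and 43 UMIs), and 2.20 and 0.808 at ZT18 (7 and 3 UMIs). The 0 in ZT0C allows up to 0.506 CPM at 3 counts, or 0.623 CPM by the exact 95% Poisson interval, for counting error only. No 2 times overlapped in their libraries, although the low counts at ZT0 and ZT18 leave their counting intervals overlapping, such as 0.190 to 1.79 CPM in ZT0A and 0.167 to 2.36 in ZT18B (exact 95% Poisson intervals). ZT12 was above ZT0 (log2 difference 5.09 ± 0.56, edgeR adjusted p = 0.00017) and ZT6 above ZT0 (3.65 ± 0.66, 0.0202, but 0.0653 without ZT6A and 0.208 without ZT6B). Ciart fell by 3.42 ± 0.60 from ZT12 to ZT18 (edgeR adjusted p = 0.00499, and 0.12 without ZT18B), and its rhythm passed without each library in turn (edgeR adjusted p = 0.00032, at most 0.00277).

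Bhlhe40 showed no such pattern at higher counts. The ZT0 libraries A, B and C held 131, 102 and 168 CPM, those of ZT6 149 and 134, those of ZT12 185, 81.9 and 125, and those of ZT18 154 and 163, from 249 to 996 UMIs a library. Every time overlapped every other except the pair ZT6 and ZT18, and the spread within ZT12 was wider than that among the means of the 4 times. The fitted amplitude was 0.15 (edgeR adjusted p = 0.804), and no alternative called it. With the index column as a block the amplitude was 0.59 and the peak ZT5.27 (edgeR adjusted p = 0.166). The difference between ZT12 and ZT0 was -0.18 ± 0.27 on the log2 scale (edgeR adjusted p = 0.806). A rhythm smaller than this error was not detectable at this replication. The smallest rhythm that would be called was not worked out, so a larger one is not excluded either.

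Bhlhe41, the paralogue of Bhlhe40, was high at a single time. In the ZT6 libraries it reached 7.52 and 9.27 CPM (37 and 24 UMIs), against 1.22, 0.595 and 0.169 in those of ZT0, 2.06, 2.24 and 3.01 in those of ZT12, and 1.57 and 1.08 in those of ZT18. Both ZT6 libraries were above all others, and the next highest library, ZT12C, held 6 UMIs. In the fit without a filter on low values its rhythm had an amplitude of 1.88 with its maximum at ZT7.59 (edgeR adjusted p = 0.00386, against 4.97% of 14278 genes called there), the earliest of the members. In that fit ZT6 was above ZT0 (edgeR adjusted p = 4.0e-05) and ZT18 below ZT6 (0.00641). Bhlhe41 passed the filter in 5 of the 10 fits that left out a library, none of them without ZT6A or ZT6B. Both ZT6 libraries, where Bhlhe41 is high, are thus in all 5, and a call kept there does not test dependence on either. In these 5 the rhythm kept its call (edgeR adjusted p at most 0.0458), and ZT18 against ZT6 lost it without ZT18A (0.135) or ZT18B (0.206). Immediate early genes, which cell isolation can induce, had their highest mean at ZT6 in 7 of the 9 tested (Jun was highest at ZT18 and Dusp1 at ZT12). Fos measured 99.9 ± 42.9 CPM (SD, n = 2) there, 38.0 ± 25.6 (n = 3) at ZT0, 19.2 ± 1.33 (n = 3) at ZT12 and 41.9 ± 0.16 (n = 2) at ZT18. Of the 9 tested genes of that list, 8 had an unadjusted p under 0.05 between ZT12 and ZT6 by each tool, and 2 were called by edgeR and limma-voom and 4 by DESeq2, against 0.595% of genes by edgeR. Their part in the ZT6 levels of Bhlhe41 and Cry1 was not tested.

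**Figure D2:**
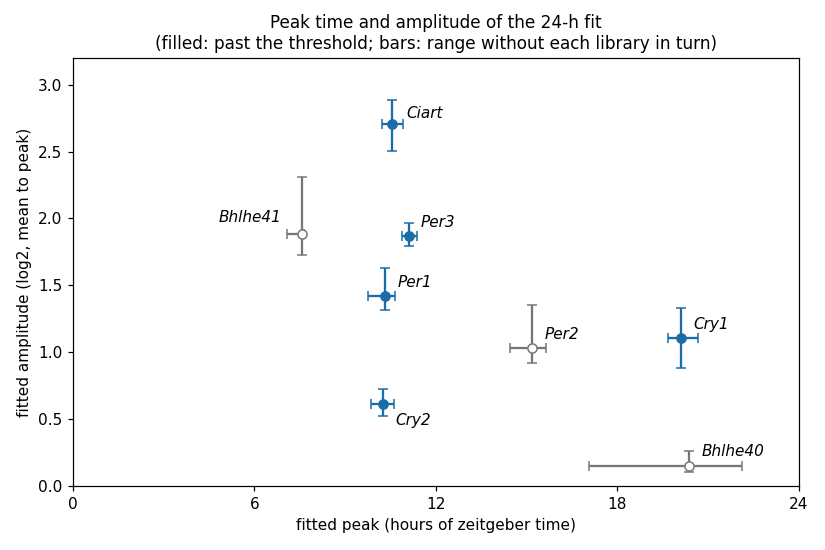
Fitted peak in hours of zeitgeber time and fitted log2 amplitude of the 24-h wave for each member; bars give the range when each library was left out in turn, and filled points passed the test. Cry2, Per1, Ciart and Per3 lie between ZT10.25 and ZT11.10, Per2 at ZT15.19 and Cry1 at ZT20.11. Per2 and Bhlhe40 (open) did not pass, and Bhlhe41 (open) comes from the fit without a filter on low values. Its bars come from the 5 fits in which it passed the filter, all with both ZT6 libraries.

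Counted over the comparisons between pairs of times, the members called were few and named. ZT12 against ZT0 called 4 of 7 (Per1, Per3, Cry2 and Ciart), all higher at ZT12, against 1.74% of genes higher and 1.7% lower. That fit ignores the library letter, which pairs these 2 times. With the letter as a block, Per2 (edgeR adjusted p = 0.0332, higher at ZT12) and Cry1 (0.0109, lower at ZT12) passed as well. The share of all genes called for these times with the block is not given here. With library size in place of TMM normalization, the median of all genes moved from 0.00 to 0.13 (log2) and the share of all calls that were higher at ZT12 moved from 50.7% to 66.7%. ZT6 against ZT0 called Per3 and Ciart, higher at ZT6 (0.348% of genes), and Cry1, lower (0.37%). ZT18 against ZT12 called Per1, Per3 and Ciart, all lower at ZT18 (1.86%), where library size alone moved the median of all genes from -0.03 to -0.17 and the share of calls that were higher from 61.6% to 47.4%. ZT18 against ZT0 called Per3 (0.932% higher) and ZT18 against ZT6 called Cry1 (2.35% higher). Since the ZT18 libraries share their index column with no other library, the ZT18 contrasts could not be fitted with that column as a block. The part of the column in these calls was not tested.

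The libraries of ZT12 and ZT0 did not overlap for 5 of the 7 (all but Cry1 and Bhlhe40), against 18.1% of genes. For ZT6 and ZT0 that count was 5 (32.8% of genes), for ZT12 and ZT6 5 (30.9%), for ZT18 and ZT12 4 (40%), and for ZT18 and ZT0 3 (32.3%). For ZT18 and ZT6, with 2 libraries each, it was 7 of 7, where 62% of genes also did not overlap.

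ZT12 against ZT6 called none of the 7 by edgeR or limma-voom, against 0.595% of genes. DESeq2 called 2 of them there (Per2 and Cry1), and 5 had an unadjusted p under 0.05 by each tool. A contrast that a 24-h wave cannot produce, the mean of ZT0 and ZT12 minus that of ZT6 and ZT18, called none of the 7 by edgeR, DESeq2 or limma-voom, against 0.505% of genes. Cry1 had an unadjusted p under 0.05 in it (log2 difference 0.84 ± 0.25, edgeR adjusted p = 0.204), as had 12% of genes. In the fit without a filter on low values, this contrast called Cry1 (edgeR adjusted p = 0.0483). Bhlhe41 had the largest difference of the members there, -1.37 ± 0.44, and was not called (0.158). With samples 6 h apart, a pulse shorter than a day would give the same 4 means.

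Whether 2 repressors kept the same ratio through the day was tested within libraries, where TMM factors drop out. Depth drops out too, except at low counts, where the count added below weighs on the ratio. For each pair the log2 ratio of UMIs, with 0.5 added to each count, was compared across the 4 times by an exact permutation test over all 25200 groupings of the 10 libraries, for which the smallest possible p is 0.00016. The pairs had been chosen with their levels known. Because genes are captured with unequal efficiency, the change of a ratio is read and not its level.

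The ratio of Per1 to Per2 changed through the day. Its log2 value was -1.55, -0.92 and -0.86 at ZT0, 0.18 and 0.94 at ZT6, -0.44, 0.14 and -0.12 at ZT12, and -2.11 and -2.32 at ZT18. Both ZT6 libraries were the highest and both ZT18 libraries the lowest, with no overlap among the 4 times (exact permutation p = 0.00063, 0.00317 adjusted over 5 ratios). From ZT12 to ZT18 the mean log2 ratio went from -0.14 to -2.21, while Per2 differed by -0.07 ± 0.46 between those times (edgeR adjusted p = 0.962).

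The ratio of Cry1 to Cry2 changed as well. It was 1.82, 0.53 and 2.06 at ZT0, -1.78 and -2.38 at ZT6, 0.17, -1.46 and -0.87 at ZT12, and 0.56 and 0.54 at ZT18 (exact permutation p = 0.00587, adjusted p = 0.0147). The means of ZT0 and ZT6 differed by 3.55 on the log2 scale, the ZT6 libraries were below all others, and ZT0 overlapped ZT18. Both of these ratios passed under every alternative tried.

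For Per3, Cry1 and Ciart against Per2 the adjusted exact permutation p was 0.0238 each, and each was lost under some alternatives (at most 0.0667, 0.0667 and 0.0754), for Per3 and Ciart with the library letter as a block among them (0.059 each). Ciart against Per2 was -4.26, -2.50 and -6.15 at ZT0, -0.67 and 0.14 at ZT6, -0.31, -0.51 and -0.52 at ZT12, and -3.06 and -4.56 at ZT18. The value of -6.15, in ZT0C, comes from 0 UMIs of Ciart and is set by the 0.5 added. The 5 libraries of ZT6 and ZT12 lay above all 5 of ZT0 and ZT18. Cry1 against Per2 was highest at ZT0, with 1.40, 2.91 and 2.97, and lay between -0.52 and 0.71 in the other 7 libraries.

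**Figure D3:**
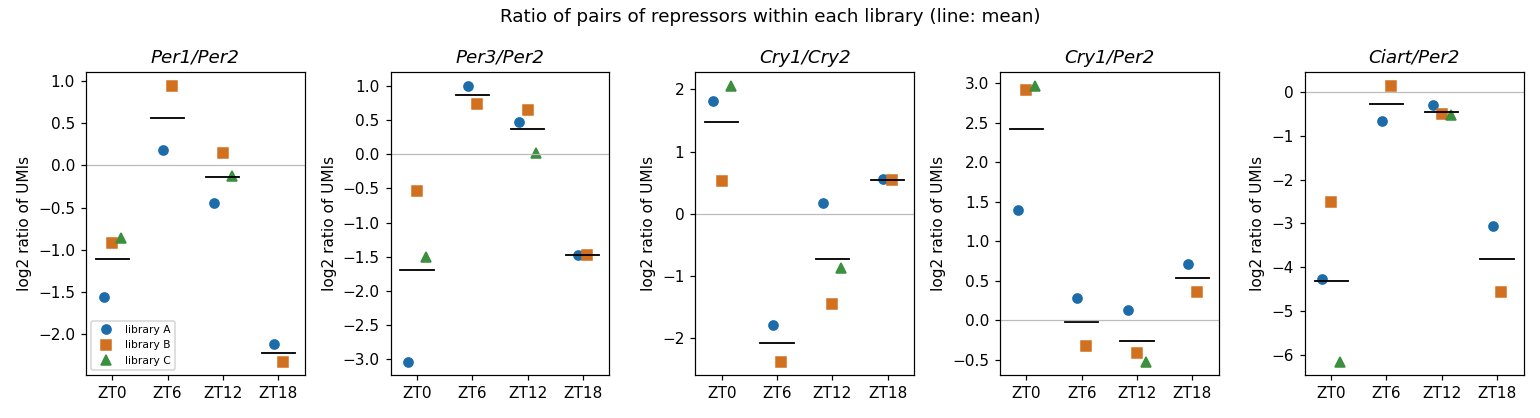
Log2 ratio of UMIs of 5 pairs of members in every library (points; circle A, square B, triangle C) at the 4 zeitgeber times, with the mean of each time as a line. Per1 against Per2 is lowest in both ZT18 libraries (-2.11 and -2.32), and Cry1 against Cry2 is lowest in both ZT6 libraries (-1.78 and -2.38).

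Position in the liver lobule was read from the cells themselves. Blood flows from the portal to the central vein, and hepatocytes along the way differ in metabolism. Cells of each library were ordered by 8 periportal minus 8 pericentral landmark genes, and the outer 2 of 3 equal parts were compared with the library as a block. Of the 8 members, all of which passed the filter on the zone sums, 2 were called, Cry1 and Bhlhe40, both higher in the periportal zone. The background is high here: 24.8% of 8923 genes were called, 12% as higher in the periportal zone, so 2 of 8 is about the share of all genes, and with library size alone the median of all genes moved from -0.01 to -0.11 and the share of calls that were periportal from 48.3% to 27.9%.

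Cry1 was 1.501 times as high on the portal side (log2 difference of the zones 0.59 ± 0.12 SE, edgeR adjusted p = 0.00035). Its mean over the 10 libraries was 20.4 ± 11.5 CPM (SD) in the pericentral zone, 25.7 ± 14.6 in the middle and 29.9 ± 16.1 in the periportal zone. Per library, on the log2(CPM + 1) scale, the difference was 0.50, -0.25 and 0.47 at ZT0, 0.54 and 0.58 at ZT6, 1.23, 0.81 and -0.05 at ZT12, and 0.72 and 0.89 at ZT18. It was periportal in 8 of 10 libraries, and the call held under every alternative, including cells of at least 3000 UMIs (0.70, edgeR adjusted p = 0.00426) and without each library in turn (at most 0.00217). In 8 equal layers from the central side, Cry1 went from 21.5, 19.7 and 19.7 CPM in the first 3 to 33.9 in the seventh and 26.2 in the eighth, each a mean of 10 libraries.

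Bhlhe40 was 1.18 times as high on the portal side (log2 difference of the zones 0.23 ± 0.08, edgeR adjusted p = 0.0302). The per-library differences, on the log2(CPM + 1) scale, were 0.01, 0.38 and 0.32 at ZT0, 0.24 and -0.03 at ZT6, -0.08, -0.16 and -0.45 at ZT12, and 0.22 and 0.58 at ZT18. The periportal zone was higher in 6 of 10 libraries, and all 3 ZT12 libraries were among the 4 that were not. The per-library values of Cry1 and Bhlhe40 are not TMM-scaled, unlike the fits. Signs near 0, such as -0.03 in ZT6B and -0.08 in ZT12A for Bhlhe40, may thus depend on the scaling. The call was lost with DESeq2 (adjusted p = 0.114), with library size alone (edgeR adjusted p = 0.209), without both ZT18 libraries (0.182), and without ZT0B (0.0936), ZT0C (0.0752), ZT6A (0.0735) or ZT18B (0.11).

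The other 6 members had no called difference between zones. The 95% intervals of the difference (normal, from the SE) were -0.23 to 0.50 for Per1, -0.15 to 0.54 for Per2, -0.28 to 0.43 for Per3, -0.01 to 0.47 for Cry2, -0.23 to 0.89 for Ciart and -0.51 to 0.87 for Bhlhe41, in log2. Fitted values of Per3, Ciart and Bhlhe41 changed sign under at least 1 alternative.

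**Figure D4:**
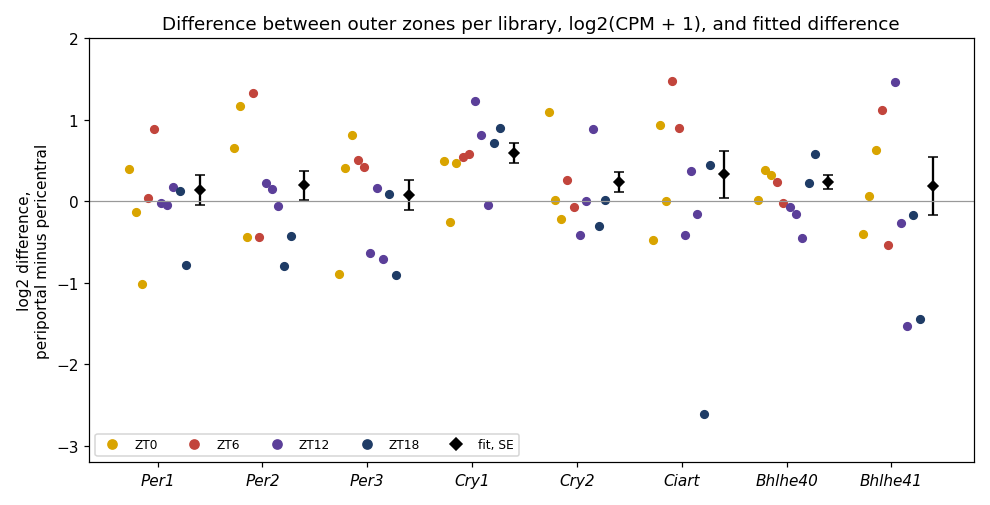
Difference between the periportal and pericentral zones in log2(CPM + 1) for each library (points, coloured by zeitgeber time) and the fitted log2 difference with its SE (diamond). The points are not TMM-scaled, and the fit is. Points above 0 are higher in the periportal zone; Cry1 is above 0 in 8 of 10 libraries, and Ciart in library ZT18A lies at -2.61.

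The time course itself was then compared between zones. The test of a zone-dependent rhythm called none of the 8 members by edgeR, DESeq2 or limma-voom, against 0.0448% of genes. At an unadjusted p under 0.05 edgeR had 2 members, Per2 and Ciart, limma-voom 1 and DESeq2 0, against 6.12% of genes by edgeR. Per2 at ZT18 measured 24.5 and 23.95 CPM in the pericentral zone and 13.6 and 17.5 in the periportal zone, and both libraries had the lower value on the portal side. At ZT0, ZT6 and ZT12 the difference had no common sign, and the test of the difference in rhythm did not pass (edgeR adjusted p = 0.771). Within the zones fitted alone, Per2 had an amplitude of 1.32 in the pericentral zone (edgeR adjusted p = 0.033) and 0.69 in the periportal zone (0.212).

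Per1, Per3 and Ciart had a called rhythm in each zone fitted alone. Cry1 was called in the pericentral zone alone (edgeR adjusted p = 0.0444, and 0.0774 in the periportal zone). Cry2 (0.0487) and Bhlhe41 (0.00335) were called in the periportal zone alone (0.15 and 0.191 in the pericentral zone). The share of all genes called in these single-zone fits was not worked out, so the calls are not read as particular to the members. The fitted peak of Ciart was ZT11.90 on the central and ZT9.82 on the portal side, and at ZT6 the pericentral zone held 3 and 5 UMIs against 11 and 11 in the periportal zone. The difference in rhythm did not pass (edgeR adjusted p = 0.795). Per3 peaked at ZT11.58 and ZT10.26 and Per1 at ZT10.98 and ZT9.80 in the same order of zones, and those differences did not pass either (edgeR adjusted p = 0.882 and 0.914).

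**Figure D5:**
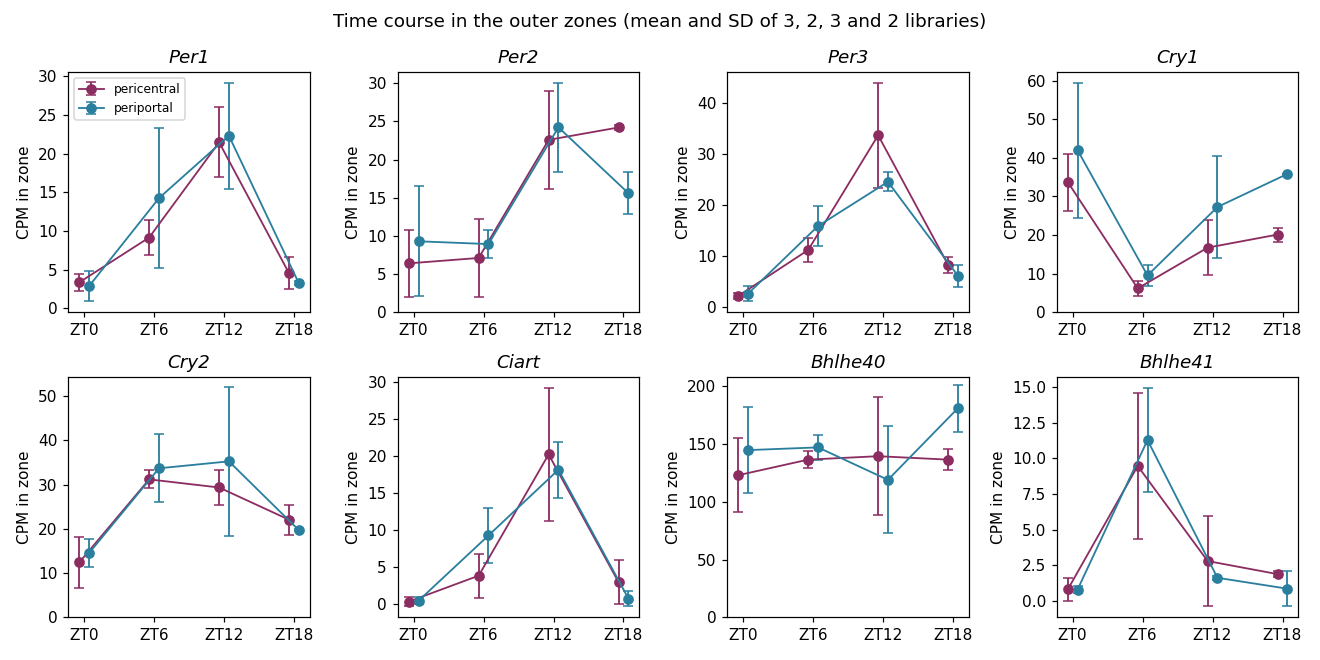
Mean level (CPM within the zone) of each member in the pericentral and periportal zone against zeitgeber time; bars are the SD of 3, 2, 3 and 2 libraries. The bars of both zones overlap at all 4 times for Per1 and Cry2, Cry1 is higher in the periportal zone at all 4 times in the mean, and the means of Per2 at ZT18 are 24.2 (pericentral) and 15.6 CPM (periportal).

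Genes whose log2(CPM + 1) over the 10 libraries was most like that of a member were listed as a description, since these points share libraries, depth and time of day. Per3 was nearest to Tef (Pearson r = 0.986), which encodes a D-box activator, then to Nr1d2 (0.971), which encodes the nuclear receptor REV-ERB beta, and to Acot12 (0.967). Ciart was nearest to Nrg4 (0.959), which encodes a neuregulin, then to Coq10b (0.958) and to Cpt1a (0.957), which encodes the enzyme that admits fatty acids to mitochondria. Per1 was nearest to Coq10b (0.984), Il15ra (0.963) and 1810055g02rik (0.958).
Cry1 was nearest to Tmem33 (0.955), Ola1 (0.951) and Bpnt1 (0.947), none of which had a called rhythm. Cry2 was nearest to a Riken cDNA gene (0.964), Mff (0.96) and Acot3 (0.956), Per2 to Mgat2 (0.93), Qsox2 (0.9) and Nnmt (0.895), and Bhlhe40 to Zfp367 (0.955), Bmpr1a (0.949) and Kmt2e (0.94). Among the members, Per1 and Ciart had the highest r (0.957) and Cry1 and Cry2 the lowest (-0.717).

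Other genes of the clock were counted from lists. In the activator loop Arntl, Clock, Nr1d1 and Nr1d2 were rhythmic by edgeR, Arntl2 and Npas2 were below the filter, and Rora was higher in the periportal zone in 10 of 10 libraries (log2 difference 0.49 ± 0.07, edgeR adjusted p = 2.3e-06). Of the genes for D-box factors, Dbp, Tef, Hlf and Nfil3, 4 of 4 were rhythmic and none differed between zones by edgeR, DESeq2 or limma-voom (1 unadjusted p under 0.05 by edgeR and by limma-voom). The call of Hlf held in 2 of the 10 fits that left out a library. Nfil3, the D-box repressor, peaked at ZT21.87, and Tef at ZT10.90.

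Of the kinases, phosphatases, ligases and partners that act on PER and CRY proteins, 24 of 27 were tested and 2 were rhythmic by edgeR, against 5.14% of all genes. Usp2, which encodes a deubiquitinase of clock proteins, reached 87.8 ± 17.9 CPM (SD, n = 3) at ZT12, against 5.45 ± 2.21 at ZT0 and 14.8 ± 4.23 and 16.5 ± 3.84 (n = 2) at ZT6 and ZT18 (edgeR adjusted p = 5.5e-05). Hdac1, which encodes a histone deacetylase, had an edgeR adjusted p of 0.0478 and passed in 3 of the 10 fits that left out a library. Prkaa2 had the next smallest rhythm p of the list and was not called (edgeR adjusted p = 0.235). In zone, Gsk3b, Skp1a and Usp14 were higher on the pericentral side and Ppp5c on the periportal side.

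Among genes of the signals known to induce Per genes, and their other targets, 4 of 15 were rhythmic by edgeR. Fkbp5, a glucocorticoid target, reached 62.8 ± 8.74 CPM at ZT12, against 12.5 ± 9.22 at ZT0, 21.9 ± 8.62 at ZT6 and 20.1 ± 3.97 at ZT18, and its fitted peak was ZT11.91 (edgeR adjusted p = 0.0142). The glucocorticoid targets Tsc22d3 and Sgk1 were not called (edgeR adjusted p = 0.727 and 0.525), with Tsc22d3 at 217 ± 127 CPM at ZT12. The heat shock genes Hsp90aa1 and Hsph1 peaked at ZT19.75 and ZT18.45, and Cirbp, which encodes a cold-inducible RNA-binding protein, at ZT7.21. Between zones, Sgk1 was higher on the portal side (log2 difference 0.85 ± 0.18, edgeR adjusted p = 0.00033), and Tsc22d3 (-0.42 ± 0.09, 0.00084) and Hsp90aa1 (-0.44 ± 0.07, 8.3e-06) on the central side. Of the immediate early genes, 0 of 9 tested were rhythmic by edgeR or limma-voom and 1 by DESeq2, with 2 at an unadjusted p under 0.05 by each tool. The contrast that no 24-h wave produces called 2 of them by edgeR and by limma-voom and 5 by DESeq2, against 0.505% of genes by edgeR. Between zones, 4 of the 9 (Fos, Junb, Egr1 and Btg2) were higher on the portal side and 1 (Jun) on the central side, against 24.8% of genes called and 12% higher on the portal side. These stand beside the portal side excess of Cry1 and Bhlhe40, and their part in it was not tested.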

How the data were processed

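The authors deposited whole-number UMI counts per gene and cell, 1 table for each of 10 libraries. The submitters' processing notes name Cell Ranger, without a version, and the builds mm10 and hg19, without a role. The cells are numbered, so barcodes shared between libraries were not counted here, and doublets were kept. The members and lists were chosen with earlier results of these data known.

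Counts were summed per library, and for zones per library and outer part of the cell order, and analysed in R 4.3.3 with edgeR 4.0.16 (TMM, quasi-likelihood fit and F-test). Genes below a mean of 3 CPM were left out, and an adjusted p under 0.05 was called. TMM factors were 0.888 to 1.14. Printed CPM are not TMM-scaled. The rhythm test has 2 degrees of freedom (cosine and sine of 24 h), and pairs of times come from a model with 1 mean per time. SEs were derived from the log2 difference and its F. Zone scores used 8 landmarks on each side, kept among the genes counted, and scores from either alternate set of landmarks had an r of 0.683 to 0.847 across cells. DESeq2 1.42.0 and limma-voom (limma 3.58.1) were alternatives. The fits were tested on simulated data. Libraries of a group differed by more than sampling noise (chi-square per degree of freedom 5.30 to 63.6), so none was a copy.

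Library letters pair ZT0 with ZT12: same-letter libraries deviated together from their group means (r of 0.239 to 0.485 over 3 pairs, other pairs -0.325 to -0.106), and they share a column of the 10x sample index. Other pairs of times gave same-letter r of -0.043 to 0.11. Named genes were the 8 members, the 3 genes nearest to each tested member, and of each list the 3 with the smallest rhythm p and those with a call in zone. Fos, named at ZT6, and the further rhythmic genes named from the lists were chosen after their values were seen. Some genes of the lists are not reported here.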

Additional observations from a re-analysis of the deposited data

Results flagged for a closer look

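The difference between zones of Ciart in library ZT18A, -2.61 on the log2(CPM + 1) scale, stood apart from the other 9 libraries, which lay between -0.48 and 1.47. It rests on 5 UMIs in the pericentral zone and 0 in the periportal zone. The gap was larger than Dixon's test allows at the 95% level, which chance exceeds in about 1 of 20 groups.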

How the results depend on the processing

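The number of rhythmic members was 5 and lay between 3 and 5 without 1 library. It was 6 with DESeq2 and with limma-voom, and at most 7, with no filter (4.97% of all genes there). With genes of at least 20 CPM alone, where fewer members were tested, it was 1, the count of members that differed among any times was 2 (5 in the full fit) and the count for ZT12 against ZT0 was 1 (4 in the full fit). The highest of these last 2 counts in any alternative were 7 and 6. Over all genes the highest were 1071 and 588. ZT18 against ZT6 called 1 member, 4 with no filter, 7 when only those 2 times were fitted, and 0 to 3 without 1 library. That count was 0 without ZT6A, ZT6B, ZT18A or ZT18B. Bhlhe41, below the filter in the main fit, is counted in all these numbers wherever it passed. It is among the 4 (edgeR adjusted p = 0.00641), those called without ZT0A (0.0098), and the 7, as Bhlhe40 was never called. Without 1 library it passed the filter only where both ZT6 libraries, in which it is high, were kept. Over all genes, ZT18 against ZT6 called 338 and, across the alternatives, up to 1849. A higher count of members there is not read as particular to them. The contrast that no 24-h wave produces called 0, and 1 with no filter (Cry1). The zone count of 2 was 1 with DESeq2, with library size alone and without both ZT18 libraries (chosen after seeing the data), and 1 to 2 without 1 library. The cause of these changes was not tested.

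Ratios are given as the log2 change from ZT0 to ZT12, while the p-value covers all 4 times. Both of these times hold libraries A, B and C, so this change cannot move with the replicate block or without the ZT18 libraries. Per3 against Per2 (2.08) lost its call with the replicate block, where the change is again 2.08, and without both ZT18 libraries (2.08), and ranged from 1.40 to 2.65 without 1 library. Cry1 against Per2 (-2.69) lost it without both ZT18 libraries (-2.69) and ranged from -3.204 to -2.42. Ciart against Per2 (3.86) lost it with the replicate block (3.86) and without both ZT18 libraries (3.86) and ranged from 2.94 to 4.76. Its change rests on 4, 4 and 0 UMIs of Ciart in the ZT0 libraries, so its size depends on the 0.5 added. Of 15 alternatives, these 3 ratios lost the call in 9, 5 and 8, mostly when a single library was left out: Per3 against Per2 without either ZT6 library, any ZT12 library or either ZT18 library (adjusted exact permutation p at most 0.0667), Cry1 against Per2 without any ZT12 library or ZT18A (at most 0.0667), and Ciart against Per2 without ZT0A, ZT6B, any ZT12 library or ZT18A (at most 0.0754). The letter block changed no call of a member beyond those given for Per2, Per3, Cry1 and these ratios.

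Values called in no fit that changed sign were the zone differences of Per3 (-0.023 with library size alone, -0.17 in cells of at least 3000 UMIs, -0.036 to 0.18 without 1 library), of Ciart (-0.18 in those cells) and of Bhlhe41 (-0.060 with DESeq2, -0.023 with the outer 2 of 4 parts, -0.22 with even-numbered landmarks). Others were the wave contrast of Per2 (-0.043 with limma-voom, -0.28 to 0.34 without 1 library) and of Ciart (-0.40 to 0.29 without 1 library), and ZT12 against ZT0 of Bhlhe40 (-0.55 to 0.042 without 1 library).

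Over all genes, 458 had a rhythm (792 with DESeq2, 228 at the lowest), 306 differed between ZT12 and ZT0 (184 to 588), 338 between ZT18 and ZT6 (50 to 1849), 45 in the wave contrast (1 to 140), 2210 between zones (1227 to 2541) and 4 in rhythm by zone (0 to 46). Depth limits Ciart and Bhlhe41 most, with 217 and 107 UMIs in all.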
